A study of Mus musculus with 12 samples.

Results

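The Hox genes of the mouse are homeobox genes that lie in 4 clusters, and all 39 genes with a symbol of the form Hox, a cluster letter and a number were taken from the tables, out of 33560 genes with counts. HoxA, on chromosome 6, holds 11 of them, HoxB 10 (GRCm38, chromosome 11, 96194316 to 96368256), HoxC 9 (chromosome 15, 102921103 to 103036852) and HoxD 9 (chromosome 2, 74668310 to 74765142). The RNA came from glutamatergic neurons differentiated in culture from mouse embryonic stem cells and taken at day 21 in vitro. WT neurons carried intact Daam1, a formin gene that acts on actin filaments, and KO neurons lacked a microexon of it. Both received 10 µM Y-27632, an inhibitor of the kinase ROCK, or water as vehicle, for 2 h. The 4 groups (WT vehicle, KO vehicle, WT inhibitor, KO inhibitor) held 3 poly(A) libraries each, and each of the 6 labelled cell lines (WT lines 1 to 3, KO lines 1 to 3) gave 1 vehicle and 1 inhibitor library. The series title names hippocampi, whereas all 12 sample labels name cultured neurons, and the sample labels were followed. Whether lines of a genotype are separate clones is not given in the sources used here, so p-values measure the spread between these lines, which may be technical.

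Hox proteins are transcription factors that give cells along the body axis their position. Genes at one end of a cluster are used toward the head and those at the other end toward the tail, and genes of the same number in different clusters (a paralog group) are copies with related roles. In the nervous system they are used in the hindbrain and spinal cord and are off in the forebrain. Retinoic acid, which the neuron protocol cited in the labels is known to use, switches on genes of the low-numbered end, Polycomb proteins hold unused genes silent, and PBX and MEIS proteins bind DNA together with Hox proteins.

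The results turn on Hoxc8, a gene of paralog group 8 whose closest copies, Hoxb8 and Hoxd8, were more abundant in these libraries. The homeobox, the stretch that encodes the DNA-binding homeodomain, is where such copies are most alike, and it is shown for the 3 genes to let a reader see how far reads from them can be told apart. Each sequence is the 180 bases of the coding strand in GENCODE M21 transcripts (GRCm38), from exon 2, and capitals mark bases that differ from Hoxc8 at the same position. They lie at chr15:102992571-102992750 (Hoxc8, plus strand), chr11:96284174-96284353 (Hoxb8, plus strand) and chr2:74706525-74706704 (Hoxd8, plus strand).
Hoxc8: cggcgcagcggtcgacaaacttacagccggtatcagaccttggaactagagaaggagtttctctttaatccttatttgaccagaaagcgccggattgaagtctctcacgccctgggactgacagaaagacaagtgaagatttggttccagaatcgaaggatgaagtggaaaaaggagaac
Hoxb8: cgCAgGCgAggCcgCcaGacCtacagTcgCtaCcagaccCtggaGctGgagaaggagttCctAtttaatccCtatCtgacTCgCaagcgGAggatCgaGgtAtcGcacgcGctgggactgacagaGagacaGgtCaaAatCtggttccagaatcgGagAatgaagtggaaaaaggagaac
Hoxd8: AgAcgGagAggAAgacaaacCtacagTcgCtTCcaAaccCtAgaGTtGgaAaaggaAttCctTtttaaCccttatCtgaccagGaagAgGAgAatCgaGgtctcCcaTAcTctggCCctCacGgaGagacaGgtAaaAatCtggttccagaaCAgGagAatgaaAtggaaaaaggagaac
Hoxb8 differed from Hoxc8 at 36 of these bases (80% identity), with a longest identical run of 21 bases, and Hoxd8 at 48 (73.3% identity), with a longest run of 15. Over the whole of Hoxc8, 12 of 2780 stretches of 50 bases were found in another annotated gene, and 0 of them in another Hox gene. Hoxc8 (ENSMUSG00000001657, chromosome 15, 102990607 to 102994111, plus strand) lies inside the span of Hoxc5 but shares 0 exonic bases with any annotated gene.

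Some members cannot be read so cleanly. Hoxd3 and Hoxd4 share 62.3% and 52.3% of their exonic bases with each other or with Gm28230 on the same strand, and Hoxb3, Hoxb2 and Hoxa3 share 52.9%, 27.3% and 25.4% of theirs with antisense RNAs such as Hoxb3os and Hoxaas2. Values of these 5 genes are uncertain, since the way the authors' counting used strand is not given in the sources used here. Other members are affected too. Hoxa11 and Hoxa7 share 35% and 20.4% of their exonic bases with antisense RNAs, and Hoxc10 shares 8.7% with Hoxc5 on the same strand.

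Library totals ran from 23253566 to 35012561 counts. The inhibitor library of KO line 3 stood apart from the rest, with a median correlation of 0.854 to the other libraries over log2 CPM (counts scaled to library depth with TMM factors), against 0.953 to 0.986 for the remaining 11. In it the summed level of 6 neuron markers was 1014 CPM, against 3045 to 4549 CPM elsewhere, and that of 7 progenitor markers was 943 CPM, against 41 to 440 CPM. Its 6 astrocyte markers, at 1085 CPM against 433 to 685 CPM, were also the highest. For Hox genes, the main results that rest on this library are given with and without it. Results of the other gene lists over lines include it and are not given without it. The cultures were labelled glutamatergic, and Slc17a6, a vesicular glutamate transporter, stood at 51.7 to 424 CPM. Gad1 and Gad2, which mark GABA neurons, stood at 86.7 to 260 and 70.5 to 227 CPM. Summed, the 7 glutamatergic markers held 57.3 to 432 CPM and the 4 GABAergic markers 299 to 815 CPM. The GABAergic sum was the higher one in every library. Between KO and WT lines edgeR called 0 genes of any marker list. At an unadjusted p below 0.05, 2 of 7 glutamatergic and 1 of 4 GABAergic markers were higher in KO, 2 of 5 neural crest markers were lower (beside 0.982% of all genes higher and 1.67% lower), and 0 of the neuron, progenitor, astrocyte, endothelial, microglia and pluripotency markers differed. The vehicle library of WT line 2 and the inhibitor library of WT line 3 had the highest levels of 13 mesenchymal markers, 1613 and 1075 CPM. In bulk RNA, fewer cells of a type and less RNA per cell cannot be told apart.

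The cultures expressed a broad block of Hox genes that ended abruptly. Of the 39 genes, 24 had more than 3 counts, the floor used here, in all 12 libraries, 9 in some of them and 6 in none. Hoxd11 and Hoxd12, known from limb patterning, had 0 counts in every library, and Hoxb1, a hindbrain gene, had at most 3. Mean levels over the 12 libraries reached 1 cRPKM, the authors' RPKM, in 21 genes. Its definition is not given in the sources used here; the length it implies (CPM over cRPKM) was 551 to 2890 bases in these genes, and for Hoxa7 19.2% of the annotated exonic bases. Levels between genes rest on that scaling. The plot of all levels shows the block as the bright rows of each cluster.

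**Figure D1:**
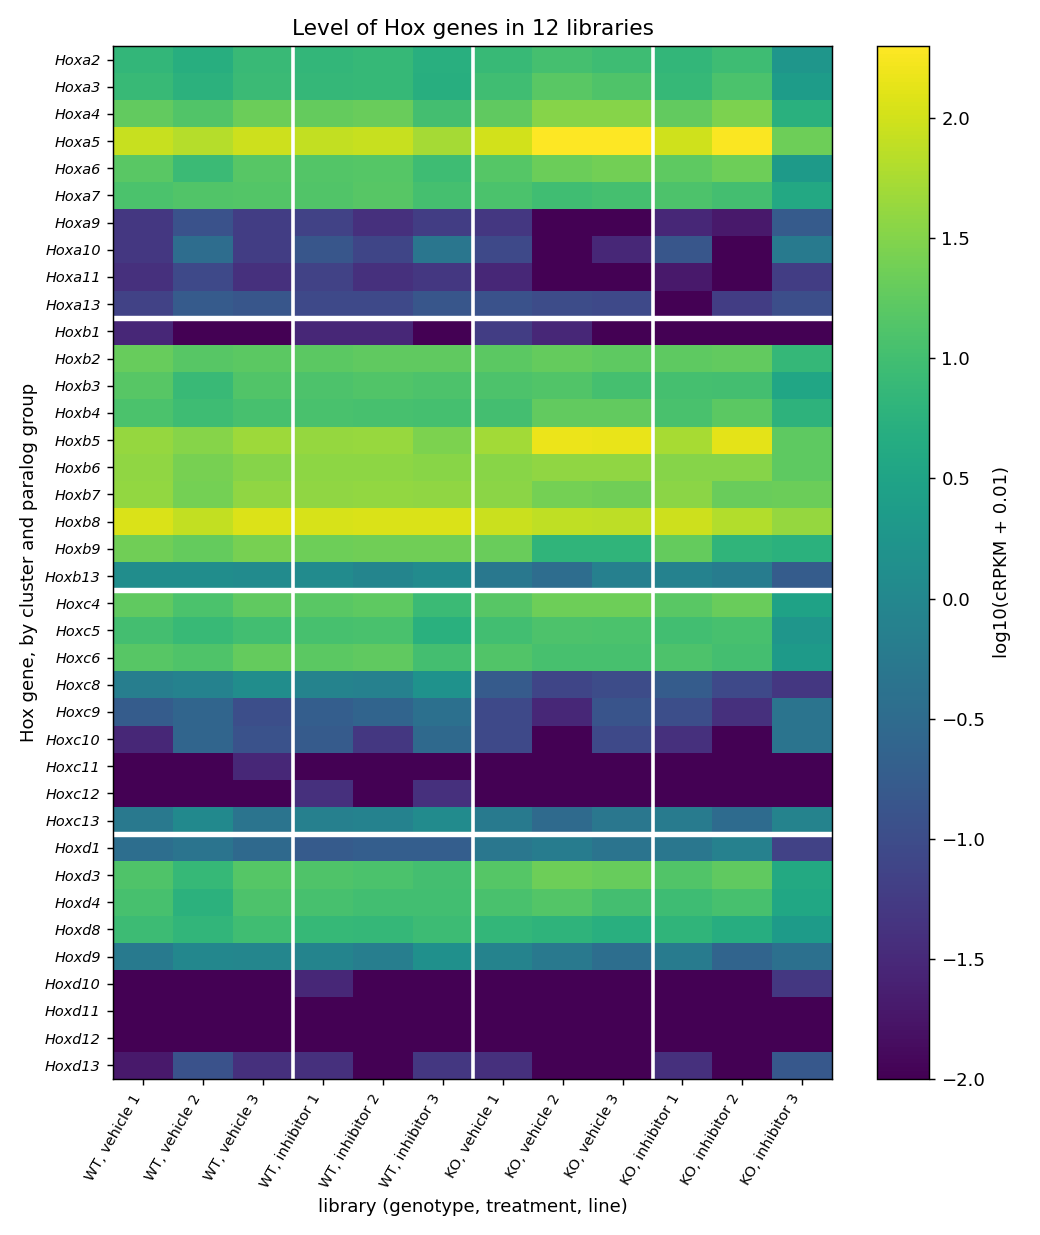
Level of Hox genes (rows, by cluster and number) in each of 12 libraries (columns, by group and line), as log10 of cRPKM plus 0.01. Rows from group 2 up to Hoxa7, Hoxb9, Hoxc6 and Hoxd8 are bright in most libraries, later rows are dark, and the last column, KO inhibitor line 3, is dimmer in most of the bright rows.

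The end of the block differed between clusters. In WT vehicle (lines 1, 2 and 3) Hoxa7 stood at 12, 13.8 and 14.1 cRPKM and the next gene of its cluster, Hoxa9, at 0.04, 0.11 and 0.05. In HoxC the step lay between Hoxc6, at 15.1, 13.2 and 19.1 cRPKM, and Hoxc8, at 0.67, 0.8 and 1.26. In HoxD it lay between Hoxd8, at 8.75, 6.67 and 9.57 cRPKM, and Hoxd9, at 0.56, 0.96 and 0.94. HoxB alone stayed high through group 9, with Hoxb9 at 23.8, 19.3 and 26.2 cRPKM, and Hoxb13, the next gene of the cluster, at 1.26, 1.26 and 1.2. No WT vehicle library of the gene before a step overlapped one of the gene after it.

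Groups 5 and 8 held the largest shares of the Hox RNA in WT vehicle. In WT vehicle, group 5 made up 26.1% to 27.3% of the summed Hox cRPKM and group 8 22.8% to 23.4%, followed by groups 6 (12.2% to 12.8%), 4 (10.4% to 11.4%) and 7 (9.53% to 9.93%). Group 9 held 4.55% to 5.25%, groups 10 and 11 at most 0.145% and 0.0204%, and group 12 had a level of 0. By cluster, HoxB carried 54.9% to 57.4% and HoxA 28% to 29.4% of the sum in WT vehicle, HoxC 8.31% to 9.1% and HoxD 5.52% to 6.94%.

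Hoxb8 and Hoxa5 were the most abundant single genes in WT vehicle. Hoxb8, which in mice acts in thoracic and cervical cord and in blood cells, averaged 105 ± 20.1 cRPKM (SD, n = 3), and Hoxa5, a gene of cervical and brachial levels, 82.5 ± 14.3. Their libraries overlapped, so that their order was within the spread. Hoxb5 (40.5 ± 6.72), Hoxb7 (34.8 ± 8.34) and Hoxb6 (32.7 ± 5.66) followed, again with overlap between neighbours in this order. Hoxb9 (23.1 ± 3.48) and Hoxa4 (18 ± 3.98) came next.

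Beyond the steps, Hoxb13, Hoxc8, Hoxd9 and Hoxc13 had the highest levels in WT vehicle. Hoxc13, known from hair follicles and tail vertebrae, stood at 0.53, 1.1 and 0.45 cRPKM in WT vehicle, above Hoxc9 (0.17, 0.24 and 0.1) and Hoxc10 (0.02, 0.24 and 0.11) in each of these libraries. Hoxa13, Hoxd13 and Hoxa11 were at or below 0.16 cRPKM in every library. The plot along the clusters shows the steps and this low tail in vehicle.

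**Figure D2:**
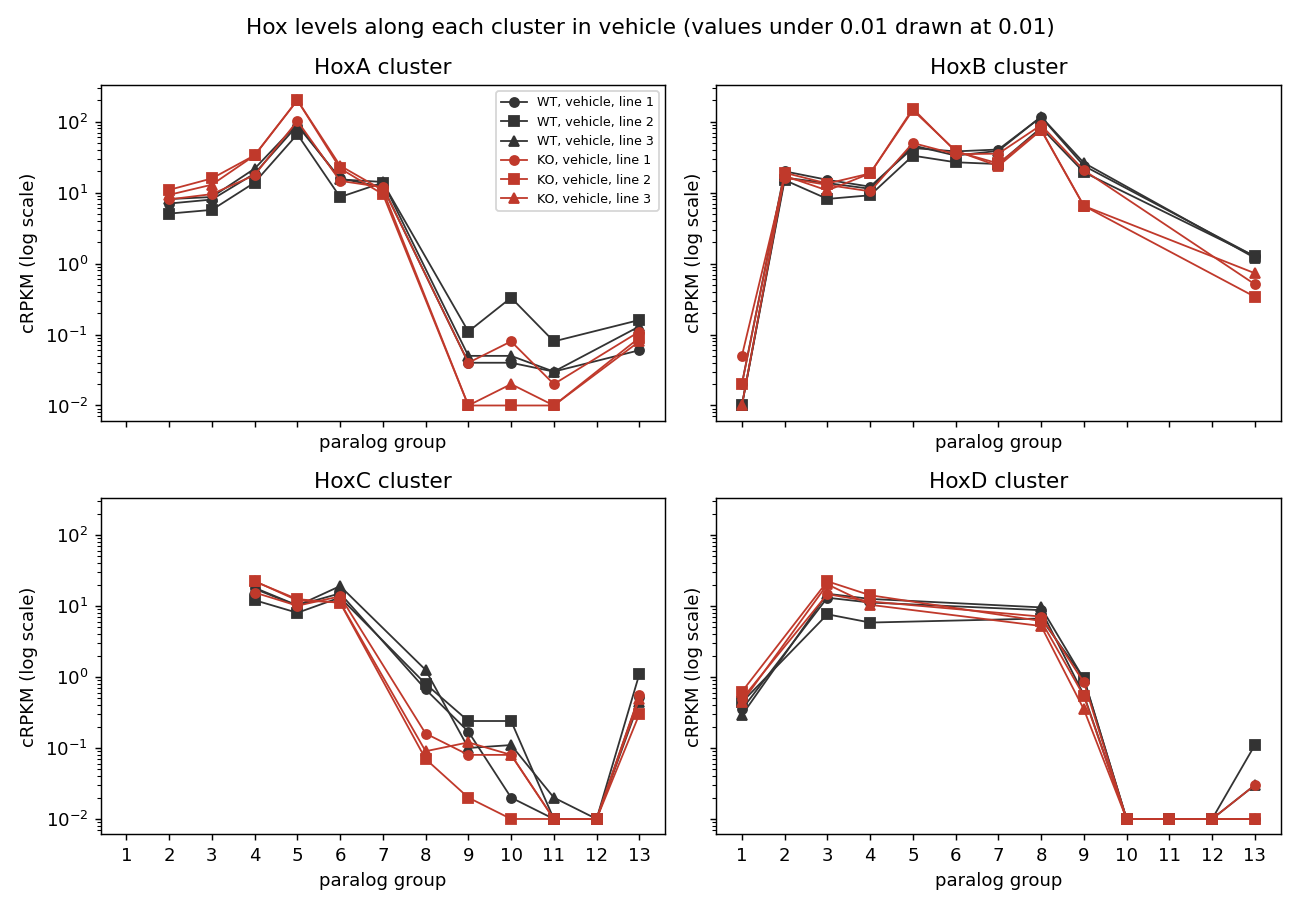
Level (cRPKM, log axis) of Hox genes against their paralog group in the 4 clusters, 1 line per vehicle library, WT dark and KO red. All libraries drop after group 7 in HoxA, 6 in HoxC and 8 in HoxD, and KO lines 2 and 3 lie above the rest at Hoxa5 and Hoxb5 and below at Hoxb9.

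The first comparison asked how the block differed between KO and WT neurons in vehicle. Hoxc8 was 8.18-fold lower in KO, Hoxb13 was 2.29-fold lower and Hoxb5 was 2.92-fold higher, and these 3 genes had an unadjusted p below 0.05. After adjustment edgeR's quasi-likelihood test called 0 of the 29 Hox genes tested, as it called 0% of all 15443 genes. With DESeq2 1 Hox gene, Hoxc8, was called (adjusted p = 0.00674), where 0.0718% of all genes were. The 3 genes at an unadjusted p below 0.05 were 10.3% of the Hox genes tested, beside 1.99% of all genes. By direction, 1 was higher, beside 0.557%, and 2 were lower, beside 1.43%. Without the inhibitor library of KO line 3, which enters this fit only through the spread, 11 of 29 had an unadjusted p below 0.05, beside 8.57% of all genes, and edgeR still called 0.

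The direction of the differences followed position in the cluster. All 14 tested genes of groups 1 to 5 had a log2 fold change above 0, from 0.04 for Hoxb3 to 1.54 for Hoxb5. Their median was 0.53. They include Hoxa3, Hoxb2, Hoxb3, Hoxd3 and Hoxd4, whose values are uncertain because of shared exonic bases, as given above. Of the 15 tested genes of groups 6 to 13, 2 were above 0, with a median of -0.48 and a range from -3.03 (Hoxc8) to 0.64 (Hoxa6). Over all genes tested 48.3% were above 0, 51.7% below, and the median was -0.01. Leaving out any 1 of the 6 vehicle libraries gave 13 or 14 genes of 14 and 2 of 15 or 16. The division between groups 5 and 6 was set after earlier results of these data were known, neighbouring genes are not independent, and no test was made of the pattern.

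Overlap of libraries across all genes was counted in CPM, here and below. In 7 genes every KO vehicle library was above every WT one (Hoxa2, Hoxa3, Hoxa5, Hoxb5, Hoxc5, Hoxd1 and Hoxd3), 24.1% of those tested beside 7.62% of all genes. In 2 genes, Hoxb13 and Hoxc8, every KO vehicle library was below, 6.9% beside 4.9%. In cRPKM Hoxa2, Hoxc5 and Hoxd3 overlapped slightly, and Hoxd1 was tied between a library of each genotype. Hoxb13 held 1.26, 1.26 and 1.2 cRPKM in WT and 0.51, 0.34 and 0.73 in KO lines 1, 2 and 3. The difference was -1.20 ± 0.49 on the log2 scale (SE; adjusted p = 0.999 in edgeR's test).

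KO line 1 was close to WT at the most abundant genes, and KO lines 2 and 3 were not. Hoxa5 stood at 88, 66.3 and 93.3 cRPKM in WT vehicle lines 1 to 3 and at 102, 200 and 200 in KO lines 1 to 3. Hoxb5, its copy in HoxB, stood at 42.4, 33.1 and 46.1 cRPKM in WT and at 49.9, 152 and 145 in KO. Line 1 of KO was just above the highest WT library in both genes, whereas lines 2 and 3 were far above it. The log2 fold changes were 1.05 ± 0.61 for Hoxa5 and 1.54 ± 0.65 for Hoxb5 (edgeR adjusted p = 0.999 for each).

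Hoxb9, named after its values were seen, showed the opposite. It stood at 23.8, 19.3 and 26.2 cRPKM in WT vehicle and at 20.6, 6.49 and 6.48 in KO lines 1 to 3. KO line 1 lay inside the WT range and lines 2 and 3 well below it. It was 2-fold lower in KO (SE 0.54 on the log2 scale; edgeR adjusted p = 0.999), with a log2 fold change of -1.80 without the vehicle library of KO line 1 and -0.72 without that of KO line 2 or 3. The ratio of Hoxb9 to Hoxb5 in cRPKM was 0.561, 0.584 and 0.567 in WT vehicle and 0.414, 0.0426 and 0.0448 in KO vehicle.

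Hoxb8 and Hoxb6, which lie between them, moved less. Hoxb8 stood at 116, 81.9 and 117 cRPKM in WT vehicle and at 89.2, 77 and 75.8 in KO, and Hoxb6 at 38, 26.7 and 33.2 in WT and at 34.7, 38 and 38.8 in KO. The groups overlapped in both genes. In HoxA, Hoxa4 stood at 18.5, 13.8 and 21.7 cRPKM in WT and at 17.6, 33.5 and 33.3 in KO, and Hoxa6 at 15.8, 8.64 and 15.3 in WT and at 14.6, 21.9 and 23.9 in KO. KO line 1 again fell within the WT range and lines 2 and 3 above it.

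In HoxD the same split of lines was weaker. Hoxd3 stood at 13.1, 7.65 and 14.9 cRPKM in WT vehicle and at 14.7, 22.3 and 20.2 in KO. Hoxd4 stood at 11.2, 5.85 and 12.6 in WT and at 11.6, 14.2 and 10.4 in KO, and Hoxd8 at 8.75, 6.67 and 9.57 in WT and at 7.1, 6.16 and 5.23 in KO. Hoxd4 and Hoxd8 overlapped between genotypes. As a result of these levels, group 5 made up 31.7% to 50.1% of summed Hox cRPKM in KO vehicle and group 9 0.96% to 4.23%, neither overlapping the WT range given above. Such shares move together, since a rise of one lowers the rest.

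KO and WT neurons were next compared under the inhibitor. Hoxc8 was 10.8-fold lower in KO (log2 fold change -3.43 ± 0.57). With edgeR 0 of 29 Hox genes passed (adjusted p = 0.856 for Hoxc8; 0% of all genes), while 5 had an unadjusted p below 0.05, all lower in KO: Hoxb7, Hoxb8, Hoxc8, Hoxd8 and Hoxd9. They were 17.2% of those tested, beside 3.5% of all genes (2.18% lower). DESeq2 called Hoxc8 alone among the Hox genes (adjusted p = 0.000114; 0.118% of all genes). In 9 genes (31%, beside 7.03% of all genes) every KO library was below every WT one, and in 1 above (3.45%, beside 3.51%). In groups 1 to 5, 7 of 14 genes had a log2 fold change above 0, and in groups 6 to 13, 1 of 15 (median -0.69), beside 49.9% of all genes. Without the inhibitor library of KO line 3 the counts were 12 of 14 (median 0.37) and 1 of 15, and without that of KO line 2 they were 2 of 14 (median -0.51) and 2 of 15.

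Much of this comparison rested on the inhibitor library of KO line 3. Hoxa5 stood at 80.7, 88.6 and 52.5 cRPKM in WT inhibitor and at 97.7, 192 and 22.7 in KO, and Hoxb5 at 42, 43.1 and 28.3 in WT and at 54, 135 and 16.9 in KO. Lines 1 and 2 of KO were above every WT library in both genes, and line 3 below. Without that library the log2 fold changes of Hoxa5 and Hoxb5 were 0.97 and 1.32, against 0.49 ± 0.60 and 0.85 ± 0.64 with it. Without the inhibitor library of KO line 2 they were -0.33 and -0.13. Hoxb9 stood at 22.5, 23.4 and 23.7 cRPKM in WT inhibitor and at 18.9, 6.43 and 5.51 in KO.

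The inhibitor libraries of the other genes named above were as follows. Hoxb8 stood at 110, 116 and 113 cRPKM in WT and at 92.8, 63.9 and 42 in KO (log2 fold change -0.79 ± 0.26; edgeR adjusted p = 0.856), and Hoxb13 at 1.19, 0.88 and 1.16 in WT and at 0.79, 0.64 and 0.17 in KO. Hoxb6 stood at 36.6, 37.3 and 34.1 in WT and at 32.6, 33.5 and 17.4 in KO. All KO libraries of these 3 genes were below the WT ones. Hoxa4 stood at 18.9, 21.2 and 10.3 in WT and at 18.5, 28.7 and 5.38 in KO, and Hoxa6 at 14.3, 14.4 and 9.1 and at 17.1, 22.3 and 2.22. Those 2 genes overlapped between genotypes. Hoxd3 stood at 13, 12.3 and 10.4 in WT and at 13.4, 17.9 and 4.02 in KO, Hoxd4 at 11.3, 9.94 and 9.79 and at 9.1, 11.1 and 3.57, and Hoxd8 at 7.7, 7.33 and 8.91 and at 6.54, 4.84 and 2.27. Of these, Hoxd8 did not overlap and was lower in KO.

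Summing both libraries of each line gave the comparison of 3 KO with 3 WT lines. Hoxc8 was 9.42-fold lower (log2 fold change -3.24 ± 0.51), Hoxb13 and Hoxb9 were each 2.12-fold lower, Hoxb8 1.47-fold lower, and Hoxb5 and Hoxa5 2.35-fold and 1.74-fold higher. With edgeR 0 of 30 Hox genes passed (0% of 16090 genes; adjusted p = 0.344 for Hoxc8, 0.752 for Hoxb13 and 0.998 for the others). An unadjusted p below 0.05 was reached by 5 genes, Hoxa5 and Hoxb5 higher and Hoxb8, Hoxb13 and Hoxc8 lower, which is 16.7% of those tested beside 2.65% of all genes (0.982% higher and 1.67% lower). DESeq2 called Hoxc8 (adjusted p = 3.42e-05) and Hoxb13 (adjusted p = 0.0123), where 0.549% of all genes were called. Without KO line 2 the log2 fold changes of Hoxb5 and Hoxa5 were 0.72 and 0.40, against 1.23 ± 0.37 and 0.80 ± 0.29 with it. That of Hoxb9 was -1.08 ± 0.50 and, without KO line 1, -1.88.

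With both treatments summed, the position pattern was weaker for groups 1 to 5 than in vehicle. In inhibitor alone it was not seen in these groups, with 7 of 14 genes above 0, and was seen only in groups 6 to 13. The 7 of 14 turned on single libraries: 12 of 14 without that of KO line 3 and 2 of 14 without that of KO line 2. With both treatments summed, 11 of 14 genes of groups 1 to 5 had a log2 fold change above 0 (median 0.34). Of 16 genes of groups 6 to 13, 1 did (median -0.58), where 60.7% of all genes were above 0. Without KO line 2 the counts were 8 of 14 (median 0.08) and 3 of 17 (median -0.44). Every KO line was above every WT line in 3 genes (10%, beside 5.18% of all genes), Hoxa5 and Hoxb5 among them, and below in 6 (Hoxb8, Hoxb9, Hoxb13, Hoxc6, Hoxc8 and Hoxd8; 20%, beside 3.78%). With KO line 3 taken from its vehicle library alone, 18 of 29 Hox genes had an unadjusted p below 0.05 (10 higher, 8 lower), but so did 22.9% of all genes, and edgeR called 0 Hox genes and 0.181% of all genes. In that fit 13 of 14 genes of groups 1 to 5 and 2 of 15 of groups 6 to 13 were above 0, and the adjusted p of Hoxc8 was 0.0539.

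**Figure D3:**
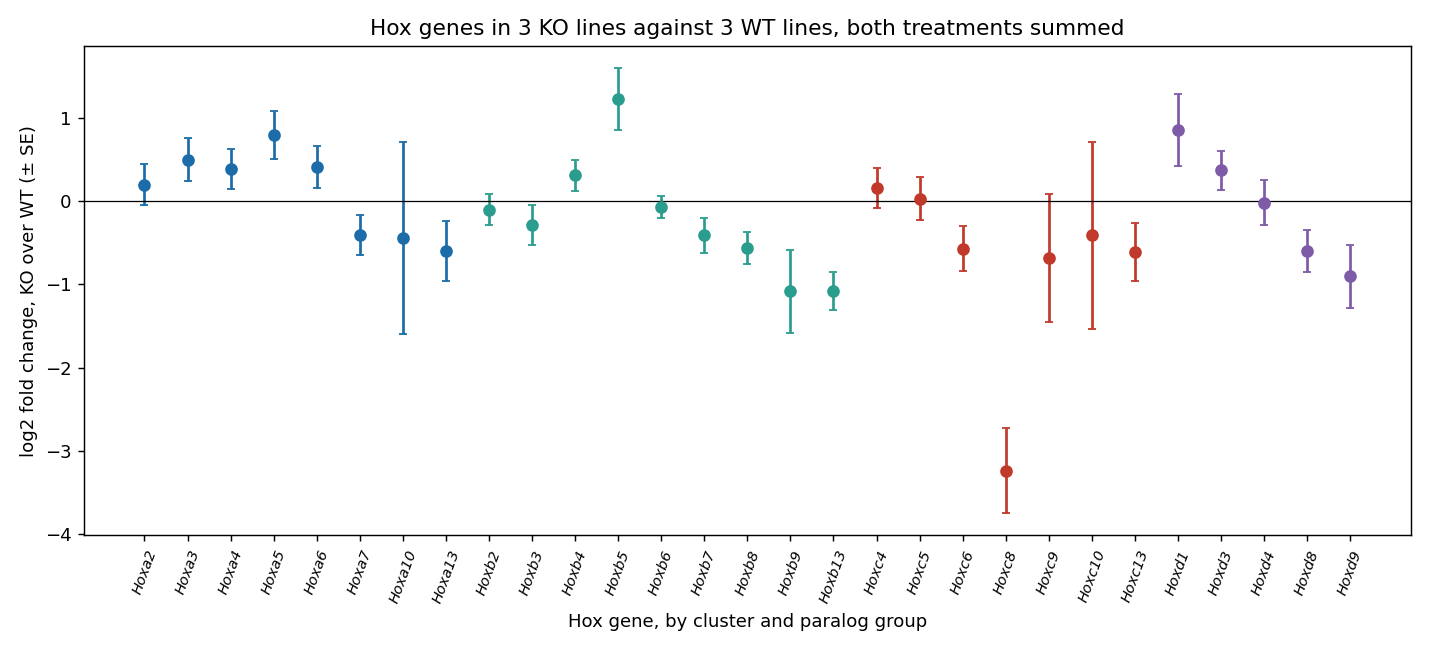
Log2 fold change (± SE) of Hox genes tested between 3 KO and 3 WT lines, both treatments summed, in order along HoxA, HoxB, HoxC and HoxD. Hoxb5 is highest at 1.23, followed by Hoxd1 and Hoxa5, and Hoxc8 lies at -3.24, below every other Hox gene.

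The HoxC cluster was then read gene by gene to see whether Hoxc8 differed alone or with its neighbours. Hoxc8 held 34, 38 and 68 counts in WT vehicle, 8, 3 and 4 in KO vehicle, 46, 37 and 86 in WT inhibitor and 10, 5 and 2 in KO inhibitor. Every KO library was below every WT library in both treatments. Mean levels were 1.62 ± 0.539 CPM (WT vehicle), 0.193 ± 0.0873 (KO vehicle), 1.91 ± 0.807 (WT inhibitor) and 0.174 ± 0.127 (KO inhibitor; SD, n = 3). KO levels lay near the floor of 3 counts, so the size of the fold is less certain than its direction.

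The neighbours on the low-numbered side were abundant, and their differences between genotypes were smaller than that of Hoxc8. Hoxc4 stood at 18.1, 12.1 and 17.5 cRPKM in WT vehicle and 15.5, 22.2 and 22.5 in KO vehicle, and at 16.1, 17.4 and 8.57 in WT inhibitor and 15.7, 21 and 3.03 in KO inhibitor. Hoxc5 stood at 10.2, 8.03 and 10.1 (WT vehicle), 10.1, 12.5 and 12 (KO vehicle), 11.1, 11.6 and 5.27 (WT inhibitor) and 9.88, 11.2 and 1.81 (KO inhibitor). Over lines, the log2 fold changes were 0.16 ± 0.24 for Hoxc4 and 0.03 ± 0.26 for Hoxc5, with approximate 95% intervals from -0.31 to 0.63 and from -0.47 to 0.53. Without KO line 2 that of Hoxc4 was -0.10. Hoxc6, the gene next to Hoxc8 among those annotated on that side, stood at 15.1, 13.2 and 19.1 (WT vehicle), 13.7, 11.1 and 11.3 (KO vehicle), 16.4, 17.5 and 10.3 (WT inhibitor) and 12.4, 10.5 and 2.18 (KO inhibitor). Its log2 fold change over lines was -0.57 ± 0.27 (edgeR adjusted p = 0.998), with every KO line below every WT line in CPM. It was -0.33 without KO line 3 and -0.80 without KO line 1.

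The neighbours on the high-numbered side were scarce, and none passed the adjusted test. Hoxc9 held 11, 14 and 7 counts in WT vehicle, 5, 1 and 7 in KO vehicle, 12, 14 and 25 in WT inhibitor and 7, 2 and 29 in KO inhibitor. Hoxc10 held 1, 12 and 6, then 4, 0 and 4, then 9, 2 and 16, and 2, 0 and 24 counts in the same order of groups. Hoxc13 held 36, 70 and 33, then 37, 17 and 31, then 54, 53 and 88, and 47, 26 and 60. WT and KO libraries overlapped in each of these 3 genes in vehicle, and their log2 fold changes over lines were -0.68 ± 0.77, -0.41 ± 1.12 and -0.61 ± 0.35. With KO line 3 taken from its vehicle library alone, Hoxc9 was at -1.56 ± 0.50 and Hoxc13 at -0.79 ± 0.30, both at an unadjusted p below 0.05, as were 22.9% of all genes in that fit. Hoxc6 was then at -0.36 ± 0.09 and Hoxc8 at -3.08 ± 0.42, and of these 4 genes edgeR called 0. Hoxc11 and Hoxc12 had at most 1 count in any library.

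The level of Hoxc8 relative to these 6 neighbours was taken per line as its log2 CPM minus their mean log2 CPM. It was -1.49, -1.64 and -0.73 in WT lines 1 to 3 and -3.20, -3.51 and -4.72 in KO lines 1 to 3, with no overlap. The means were -1.28 ± 0.48 and -3.81 ± 0.80 (SD, n = 3), a difference of -2.53. A two-sided exact permutation test over lines gave p = 0.1, the smallest value that 3 against 3 allows, so this design cannot reach 0.05. Hoxc8 was singled out with earlier results of these data known. The separation of the lines and this p-value are therefore not independent evidence of a difference. In vehicle alone the difference was -2.38 and in inhibitor alone -2.33. The cRPKM ratio of Hoxc8 to Hoxc6 ran from 0.0435 to 0.152 in WT libraries and from 0.00628 to 0.0183 in KO libraries.

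**Figure D4:**
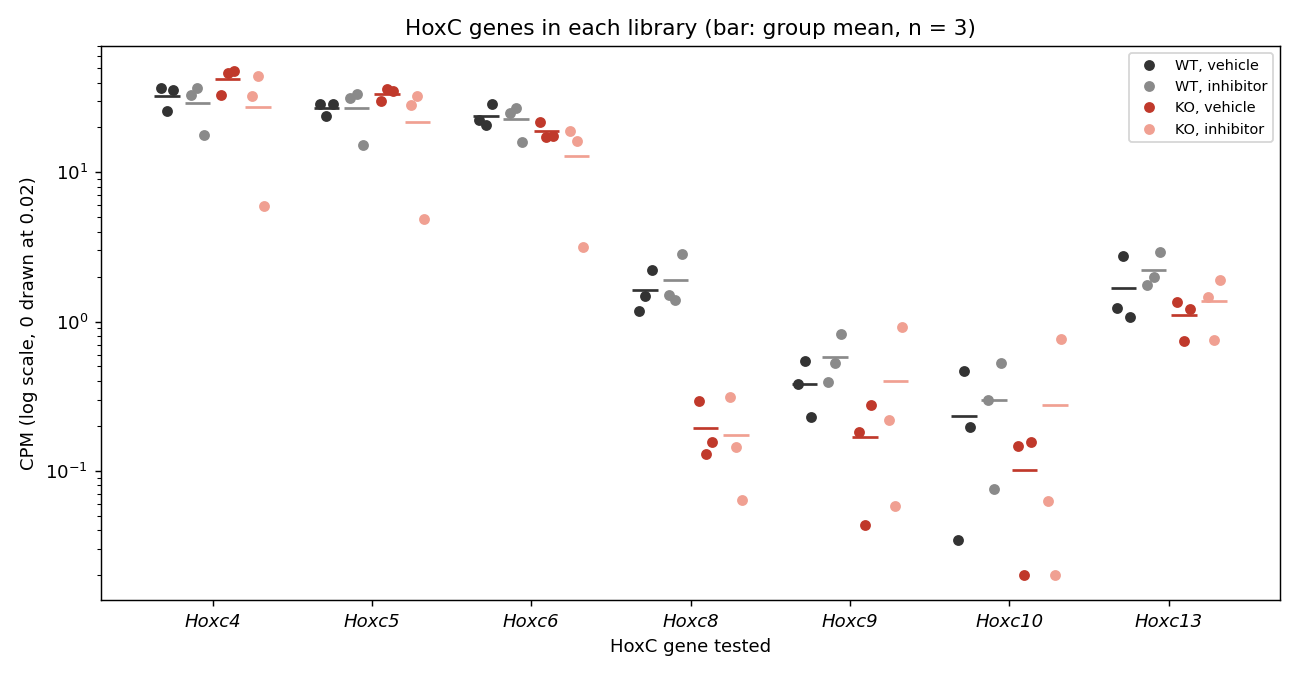
CPM (log axis) of the 7 HoxC genes tested, 1 point per library and a bar at each group mean (n = 3). The 6 KO libraries of Hoxc8 lie between 0.0636 and 0.313 CPM and the 6 WT libraries between 1.17 and 2.84, while in each of the other genes WT and KO libraries overlap.

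Mesenchymal markers also differed between genotypes, so they are given beside Hoxc8. The 13 markers, all detected in every library, summed to 173 to 1613 CPM in WT vehicle, 71.5 to 171 in KO vehicle, 400 to 1075 in WT inhibitor and 131 to 615 in KO inhibitor. Of them 0 were called by edgeR between lines, beside 0% of all genes. At an unadjusted p below 0.05, 9 were lower in KO, beside 1.67% of all genes. DESeq2 called 9, beside 0.549%. Col1a1, a fibrillar collagen chain, averaged 216 CPM in WT vehicle and 22.4 in KO vehicle, and Col3a1, another, 172 and 14.3. Their part in the difference of Hoxc8 was not tested. In vehicle both the marker sum and Hoxc8 were lower in every KO library than in every WT library. Genotype and marker level thus went together there, and no test was made to tell them apart. The nearest marker sums across genotypes were 173 CPM in WT line 3 and 171 CPM in KO line 3, with Hoxc8 at 2.22 and 0.157 CPM. In inhibitor the marker sums overlapped only through KO line 3, at 615 CPM, the library that stood apart from the rest.

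**Figure D5:**
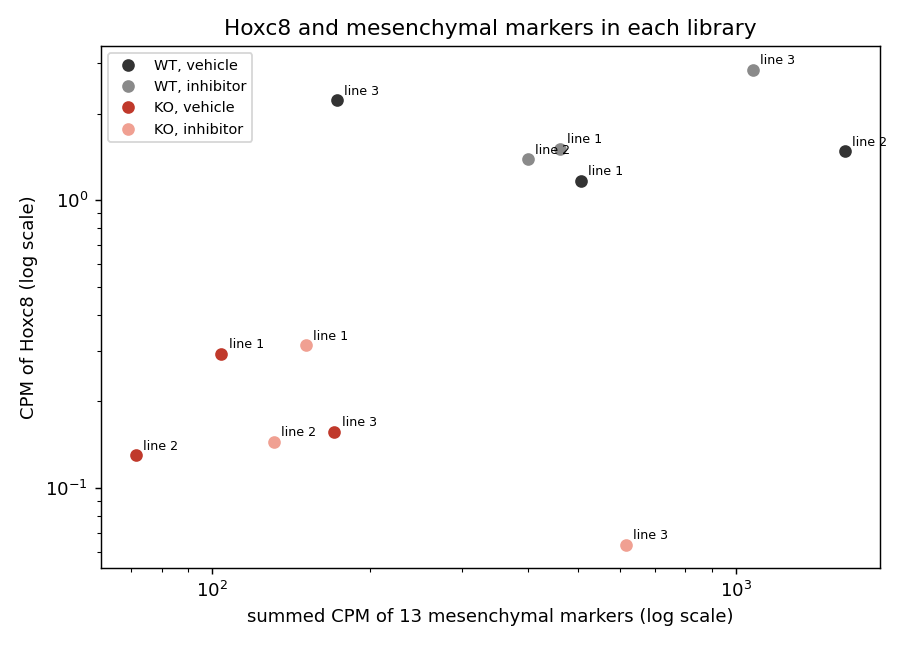
CPM of Hoxc8 against the summed CPM of 13 mesenchymal markers in each of 12 libraries (log axes), coloured by group and labelled by line. WT libraries lie above 1 CPM of Hoxc8 at marker sums from 173 to 1613, and KO libraries lie below 0.4 CPM at sums from 71.5 to 615.

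The effect of the inhibitor on Hox genes was asked within each genotype. In WT, edgeR called 0 of 29 Hox genes, 0 had an unadjusted p below 0.05 and DESeq2 called 0, beside 0%, 0.304% (0.168% higher, 0.136% lower) and 0% of all genes. The median log2 fold change was 0.02. Hoxd1, an early hindbrain and sensory neuron gene, had the smallest p. It held 0.35, 0.44 and 0.29 cRPKM in WT vehicle and 0.16, 0.18 and 0.18 in WT inhibitor, and was the only 1 of 29 genes (3.45%, beside 2.93% of all genes) in which all inhibitor libraries were lower; in 0 were all higher, beside 3.04%. It rested on 9 to 21 counts per library, and its change was -1.01 ± 0.68 on the log2 scale (edgeR adjusted p = 1). In KO vehicle it held 0.49, 0.62 and 0.44 cRPKM and in KO inhibitor 0.49, 0.76 and 0.06. Hoxc8 changed by 0.24 ± 0.50 on the log2 scale in WT, with its libraries overlapping, and by -0.16 without the inhibitor library of WT line 3.

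In KO, 25 of 29 Hox genes had a log2 fold change below 0 (86.2%, beside 51.8% of all genes), with a median of -0.48, but edgeR called 0, 0 had an unadjusted p below 0.05 and DESeq2 called 0 (0%, 7.05% and 0% of all genes). Hoxb6, which had the smallest p, changed by -0.46 ± 0.23 (edgeR adjusted p = 0.474) and by -0.19 without the inhibitor library of KO line 3. Hoxb3 and Hoxb6 were lower in every KO inhibitor library than in every KO vehicle library (6.9%, beside 5.65% of all genes), and 0 genes were higher in every one (beside 3.19%). Without that library the median over Hox genes was -0.15, with 21 of 29 below 0. The log2 difference of Hoxa5, inhibitor minus vehicle, was -3.25 in KO line 3 and -0.11 and -0.05 in KO lines 1 and 2. The summed Hox level was 181 cRPKM in that library, against 393 to 734 in the other 11, and its neuron markers were the lowest, as given above; their part in the result was not tested.

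The test of whether the response differed between genotypes called 0 Hox genes with edgeR and 0 with DESeq2, and 0 had an unadjusted p below 0.05 (0%, 0% and 1.2% of all genes). The smallest p was again that of Hoxb6, with a difference of -0.61 ± 0.33 (edgeR adjusted p = 0.808), which was -0.35 without the inhibitor library of KO line 3. For Hoxc8 it was -0.40 ± 0.78, with an approximate 95% interval from -1.93 to 1.13.

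Genes that work with Hox proteins or set their range were listed to place the block. All 9 TALE homeobox cofactor genes (the PBX, MEIS and PKNOX families) were expressed, led by Meis2, at 231 CPM in WT vehicle and 282 in KO vehicle, and Pbx3, at 181 and 177. Over lines 0 of 9 were called by edgeR, and 1 was lower at an unadjusted p below 0.05, beside 0% and 1.67% of all genes. Of 17 retinoic acid pathway genes tested 0 were called, 5 were lower and 1 higher at an unadjusted p below 0.05 in KO lines, beside 1.67% and 0.982% of all genes. DESeq2 called 1 of them, Cyp26b1, beside 0.549% of all genes. Cyp26b1 encodes an enzyme that breaks retinoic acid down (log2 fold change -1.09 ± 0.27, DESeq2 adjusted p = 0.0416, edgeR adjusted p = 0.998). The median log2 fold change of the 17 genes was 0.00 over lines and -0.80 in vehicle. The receptors Rxrb and Rxra, the most abundant of the list, stood at 59.8 and 23.8 CPM in WT vehicle and 57.5 and 30.5 in KO vehicle.

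Chromatin regulators of the clusters were also compared over lines. Of 20 Polycomb genes and 7 Trithorax and H3K27 demethylase genes, edgeR called 0 and 0 had an unadjusted p below 0.05. Over all genes the shares were 0% and 2.65%. The median log2 fold changes were 0.05 and 0.04, with the inhibitor library of KO line 3 included. In vehicle the median was -0.10 in each list. The 7 genes summed to 386 to 427 CPM in KO vehicle and 439 to 501 in WT vehicle. In KO inhibitor they summed to 422, 399 and 510 CPM in lines 1 to 3, the last being the library that stood apart. The WT inhibitor sums, 446 to 474 CPM, lay above those of KO lines 1 and 2 and below that of KO line 3. Rbbp7 and Rbbp4, histone-binding subunits shared by several complexes, were the most abundant of the first list, at 166 and 160 CPM in WT vehicle and 139 and 167 in KO vehicle. Kmt2a and Kmt2b, H3K4 methyltransferases, led the second, at 140 and 95.9 CPM in WT vehicle and 112 and 81.4 in KO vehicle.

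Genes just outside the clusters were looked at to see whether they differed with the Hox genes. Of the 16 protein-coding genes nearest to the cluster ends, 15 were tested over lines. By edgeR 0 were called and 0 had an unadjusted p below 0.05, beside 0% and 2.65% of all genes. With shares this low, 0 of 15 does not set them apart from other genes. Cbx5, beyond the Hoxc4 end of HoxC, stood at 235 CPM in WT vehicle and 246 in KO vehicle, and Hnrnpa3, beyond the Hoxd1 end of HoxD, at 163 and 193. Of 15 noncoding RNAs of the clusters, 8 had 3 counts or fewer in every library. Among the 5 tested, Hoxaas2 stood at 2.52 CPM in WT vehicle and 5.11 in KO vehicle and Hoxb5os at 2.53 and 3.86. Of these 5 edgeR called 0 over lines, and 0 had an unadjusted p below 0.05, beside the same shares of all genes.

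Other position genes were present beside the Hox block. Forebrain regulators were scarce apart from Bcl11b, which is also used in spinal neurons, at a median of 32.1 CPM over the 12 libraries; Emx1, a marker of the dorsal telencephalon, was at 0.127 to 1.11 CPM. In WT vehicle the forebrain list summed to 39.1 to 44.7 CPM, the hindbrain list to 60.6 to 67 and the midbrain and isthmus list to 94.2 to 115. In the inhibitor library of KO line 3 the hindbrain sum, 26.6 CPM, was below the forebrain sum, 47.1 CPM. Among hindbrain and dorsal cord genes, Lbx1 was at a median of 28.7 CPM, below Bcl11b, and Gbx2 at 9.49. Pax2, used in the isthmus and in spinal interneurons, was at 62.7, and Mnx1, a motor neuron gene, at 7.88. The caudal genes that switch on trunk Hox genes in the embryo were low, with Cdx1 at 0 counts in all libraries, Cdx4 at most 1 and Cdx2 at a median of 0, whereas Gdf11 had a median of 37.2 CPM. Emx1 and the Cdx genes are given as defining members, beyond the rule for naming genes. Over lines edgeR called 0 genes of these lists. At an unadjusted p below 0.05, 2 of 12 forebrain genes were higher, 2 of 7 midbrain and isthmus genes lower, and 1 of 10 hindbrain genes each way, with 0 of 8 motor neuron and 0 of 4 caudal genes. Over all genes 0.982% were higher and 1.67% lower. Here DESeq2 called En1, a homeobox gene of the isthmus and of spinal interneurons, beside 0.549% of all genes. Its log2 fold change was -1.03 ± 0.20 (DESeq2 adjusted p = 0.000377, edgeR adjusted p = 0.597).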

How the data were processed

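RNA from 12 libraries was analysed. Per the labels' protocols libraries were poly(A)-selected and stranded. The authors deposited a table of 36902 genes per library with raw read counts and cRPKM, an RPKM of the authors whose correction is not defined in the sources used here; 3342 genes were NA in every table. The build is mm10, per the submitters' processing notes; aligner, annotation and counting are not given in the sources used here. Symbols were matched for 33371 of 33560 identifiers, and positions are from GENCODE M21 (GRCm38). Counts were tested with edgeR 4.0.16 in R 4.3.3 (TMM, filterByExpr by group, robust quasi-likelihood F test, Benjamini-Hochberg over all 15443 genes, or 16090 for line sums, called at 0.05), in 1 fit of 12 libraries with a term per group. DESeq2 1.42.0 was an alternative. SE is the fold change over the root of F, and approximate intervals are 1.96 SE on either side. CPM uses TMM factors, and log2 CPM a prior count of 2. The scripts were tested on simulated data. The floor covers counting error only, and the intervals include the spread between libraries.

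Values in every library were given by rule for Hoxc8, the HoxC genes tested, the 3 highest genes (mean cRPKM) of each other cluster, genes called by either tool, and the smallest p of each comparison (some genes are not reported here); of the other lists, the 2 highest genes and those called. Members and lists were chosen with earlier results of these data known. The lists were TALE cofactors, caudal, retinoic acid, Polycomb, Trithorax, forebrain, midbrain, hindbrain and motor neuron genes, cluster noncoding RNAs, flanking genes and cell type markers.

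The labels pair the vehicle and inhibitor libraries of a line. Their deviations correlated at 0.411, -0.553 and -0.723 (WT lines 1 to 3) and -0.191, 0.574 and -0.373 (KO lines 1 to 3). WT and KO lines of the same number share only that number in the labels; their deviations correlated at -0.35, -0.649 and 0.167 in vehicle and at 0.38, 0.649 and 0.795 in inhibitor, above 0.1 in every pair for the inhibitor libraries alone.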

Additional observations from a re-analysis of the deposited data

How the results depend on the processing

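The results named were recomputed under 554 alternatives in all, of which 536 kept the direction and the side of the threshold, 7 passed the threshold where edgeR had not and 11 turned the direction. The 7 were all DESeq2 values: 1 Hox gene called in vehicle, 1 in inhibitor and 2 over lines, with Hoxc8 at -3.05, -3.42 and -3.25 and Hoxb13 at -1.09 over lines. With each library or line left out in turn edgeR called 0 Hox genes in each of the 6 comparisons, with 1 to 11 at an unadjusted p below 0.05 in vehicle (1.08% to 8.57% of all genes), 2 to 8 in inhibitor (1.73% to 9.5%) and 2 to 14 over lines (1.38% to 13.1%), and the difference of Hoxc8 from its neighbours ran from -2.83 to -2.07. Directions turned in inhibitor for Hoxb5 (-0.13 to 1.32) and Hoxa5 (-0.33 to 0.97), over lines for Hoxc4 (-0.10 to 0.34), and for the response of Hoxc8 in WT (-0.16 to 0.53), in KO (-0.87 to 0.26) and between genotypes (-1.10 to 0.03). Leaving out 3 libraries together (KO line 3 inhibitor, WT line 2 vehicle, WT line 3 inhibitor), chosen after seeing the data, gave -0.26, 0.22 and 0.48 for those 3, and the cause was not tested. With a replicate block (the line for treatment, the line number for genotype), edgeR called 0 Hox genes in each comparison, so the block changed no call; pairing WT and KO lines by number alone, the difference of Hoxc8 from its neighbours was -2.53 with an exact p = 0.25, the smallest that 3 pairs allow. Hoxc9, Hoxc10 and Hoxd1 held 0 to 48 counts per library, where counting error is large.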
